A study of Mus musculus with 12 samples.

Results

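The genes described here encode the collagens, laminins, nidogens and perlecan of the basement membrane. They are Col4a1, Col4a2, Lama2, Lama4, Lama5, Lamb2, Lamc1, Nid1, Nid2 and Hspg2, 10 of the 21705 genes listed, and were taken by symbol. All 10 members passed the filter on low counts, which left 13440 genes to test. All 10 cardiomyocyte markers were tested, at a sum of 87856 to 103575 CPM (read counts scaled to library size) per library. Of 8 listed skeletal muscle markers, 3 were tested, at a sum of 2517 to 3276 CPM per library, and Myh2 was at 0 in every library. The 12 libraries were made from polyA RNA of hearts of female FVB mice, 3 per group. The control group received water, and the other groups received a daily dose over 14 days, 40 mg/kg of sunitinib, 30 mg/kg of sorafenib or 50 mg/kg of erlotinib. Sunitinib and sorafenib inhibit several receptor tyrosine kinases, among them the VEGF receptors, sorafenib also inhibits RAF kinases, and erlotinib inhibits the EGF receptor. Total expected counts, the read counts per gene that RSEM estimates, ranged from 14.3 to 16.5 M per library. The labels do not say whether each library came from 1 animal, so p-values measure the spread between these libraries, which may be technical.

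Basement membranes are thin sheets of matrix that surround each cardiomyocyte and underlie the endothelium of every vessel. Laminin trimers of an alpha, a beta and a gamma chain bind integrins and dystroglycan on the cell surface. Type IV collagen forms a second network, and nidogens and the heparan sulfate proteoglycan perlecan tie the networks together. Endothelial cells, mural cells, fibroblasts and cardiomyocytes all contribute chains, so in bulk tissue fewer cells of a type and less RNA per cell cannot be told apart.

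Col4a1 and Col4a2 encode the chains of the most widespread collagen IV trimer and lie head to head on mouse chromosome 8. Their promoter windows are shown because this pair was the most alike of the members across libraries. Whether the promoters bear on that was not tested. RefSeq windows from 250 bases before to 50 after the start site were found for 7 of the 10 members, and those of this pair share 78 bases, in capitals below, which read as each other's reverse complement.
Col4a1 (GRCm38.p6, chr8:11312777-11313076, minus strand): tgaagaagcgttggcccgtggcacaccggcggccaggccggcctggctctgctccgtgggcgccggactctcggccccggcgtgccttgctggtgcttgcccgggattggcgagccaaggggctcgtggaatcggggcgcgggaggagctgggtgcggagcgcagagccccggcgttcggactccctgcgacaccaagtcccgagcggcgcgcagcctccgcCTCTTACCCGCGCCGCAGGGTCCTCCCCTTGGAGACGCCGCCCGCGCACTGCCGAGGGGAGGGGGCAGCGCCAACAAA
Col4a2 (GRCm38.p6, chr8:11312555-11312854, plus strand): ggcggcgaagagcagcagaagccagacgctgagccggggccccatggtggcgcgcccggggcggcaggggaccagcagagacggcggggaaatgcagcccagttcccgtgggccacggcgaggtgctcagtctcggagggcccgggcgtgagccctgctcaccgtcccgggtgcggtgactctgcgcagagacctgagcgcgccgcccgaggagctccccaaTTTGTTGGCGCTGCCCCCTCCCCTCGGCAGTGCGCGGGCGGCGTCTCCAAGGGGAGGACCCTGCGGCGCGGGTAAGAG
The start sites used for these windows lie 21 bases apart. The windows held 74.0% and 73.7% G and C, against a median of 52.7% over 32851 mouse promoter windows. Counting both strands, the letters CCCTCCCC occurred once in the shared part, as did GGGCGG, and these letters occurred in 10.8% and 35.7% of all windows. The letters CCAAT (37.4% of all windows) occurred once in each window but not in the shared part, and TATAAA (13.6%) occurred in neither. These are matches of letters only. The deposited files use build mm9, so these coordinates belong to the RefSeq windows and not to the counts.

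Per transcript length, Lamb2, a laminin beta chain, had the highest mean level of the members in every group. In control hearts it was at 76.8 ± 7.91 TPM, a level scaled to transcript length and library size (SD, n = 3). Perlecan (Hspg2) followed at 51.4 ± 9.52 TPM, Col4a1 at 50.2 ± 7.36 TPM and Col4a2 at 45.5 ± 7.99 TPM, and neighbours among these 3 overlapped between libraries. Lamc1, the gamma chain of most laminins, was at 32.9 ± 2.43 TPM, Nid1 at 28.3 ± 2.45 TPM, Lama2 at 26.2 ± 2.04 TPM and Lama5 at 23.9 ± 3.40 TPM, again with each neighbour overlapping the next. Lama4, at 14.4 ± 2.01 TPM, and Nid2, at 5.59 ± 1.12 TPM, were the lowest, without overlap. In the erlotinib group Col4a1 reached 73.8 ± 12.9 TPM and overlapped Lamb2 at 77.1 ± 1.45 TPM, while in the control, sunitinib and sorafenib groups Lamb2 overlapped no other member.

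Across the 4 groups, the collagen IV pair differed and none of the laminins, nidogens or perlecan passed the test. Levels between libraries are given as CPM scaled by TMM factors. Col4a1 was at 294, 356 and 368 CPM in Control_1365, Control_1366 and Control_1367. It was at 315, 262 and 207 CPM in Sunitinib_1368, Sunitinib_1369 and Sunitinib_1370. It was at 454, 389 and 433 CPM in Sorafenib_1371, Sorafenib_1372 and Sorafenib_1373. It was at 426, 528 and 622 CPM in Erlotinib_1374, Erlotinib_1375 and Erlotinib_1376. The sunitinib libraries lay below every sorafenib and erlotinib library, and the erlotinib and sorafenib libraries lay above every control library.

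Col4a2 followed the same order of group means, sunitinib, control, sorafenib, erlotinib. It was at 268, 289 and 335 CPM in control libraries and at 292, 251 and 195 CPM in sunitinib libraries. It was at 417, 350 and 380 CPM in sorafenib libraries and at 356, 425 and 522 CPM in erlotinib libraries. As for Col4a1, the lowest library was Sunitinib_1370 and the highest was Erlotinib_1376, and the sunitinib and control libraries overlapped. In 1 test over all 4 groups (edgeR quasi-likelihood, Benjamini-Hochberg over all tested genes), Col4a1 had an adjusted p of 0.0248 and Col4a2 of 0.0383. These 2 of 10 members were called, against 5.39% of all tested genes. At an unadjusted p under 0.05 the same 2 passed (23.3% of all genes), and DESeq2 called them as well (12.4%). With 1 of the 12 libraries left out in turn, the call of Col4a1 was lost in 3 fits, without Sunitinib_1369, Erlotinib_1375 or Erlotinib_1376. That of Col4a2 was lost in 8 fits, those 3 and the ones without Control_1366, Sunitinib_1370 or any of the sorafenib libraries. The highest adjusted p with 1 library left out was 0.0839 for Col4a1 and 0.109 for Col4a2. With a score of atrial markers in the fit, the adjusted p was 0.0705 for Col4a1 and 0.120 for Col4a2.

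**Figure D1:**
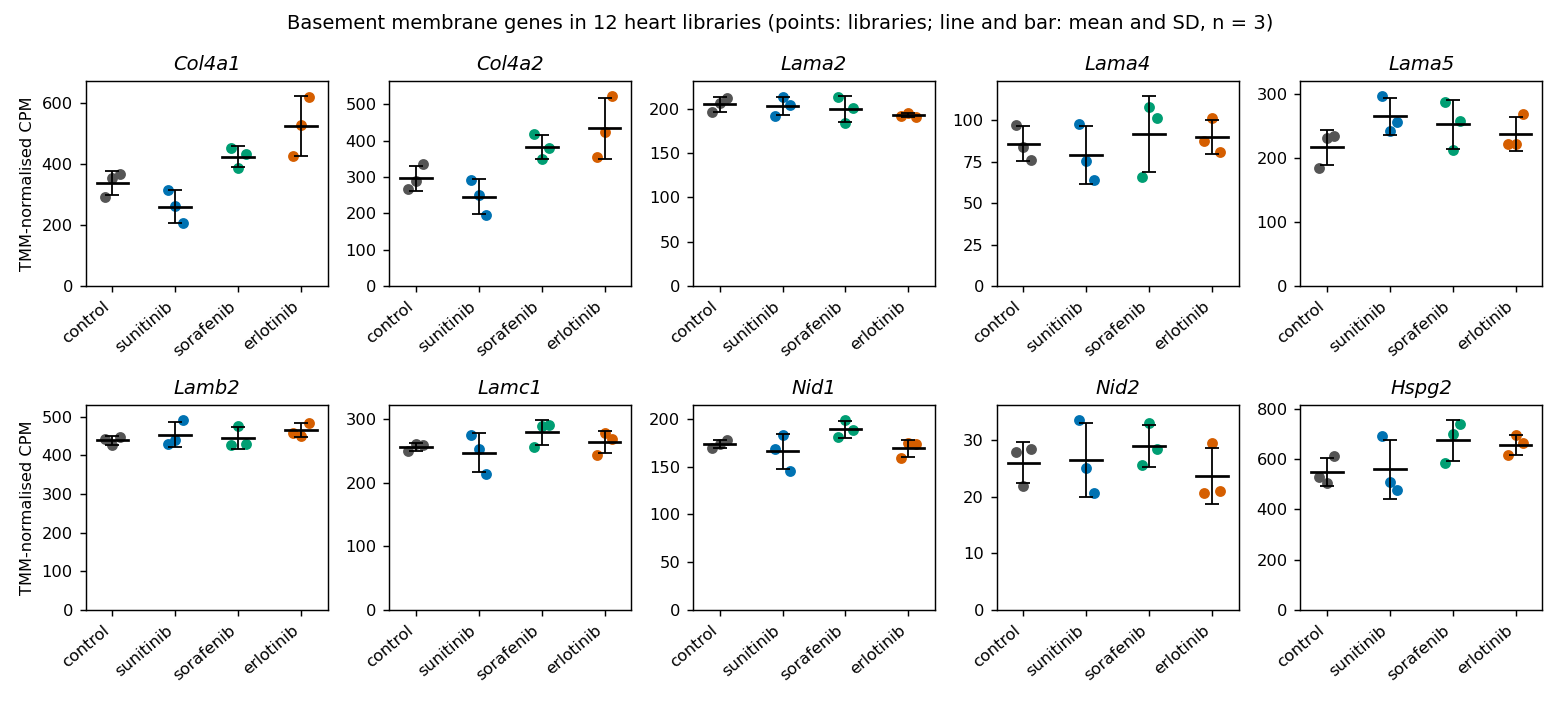
TMM-normalised CPM of the 10 members (y axis, from 0) in each library, by group (x axis); points are libraries, and the line and bar are the mean and SD of 3. Col4a1 runs from 207 CPM in a sunitinib library to 622 CPM in an erlotinib library, while Lamb2 stays between 426 and 492 CPM.

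The pair was lower with sunitinib than with erlotinib. Col4a1 was at 261 ± 54.1 CPM with sunitinib and at 525 ± 98.0 CPM with erlotinib (SD, n = 3 each), which is -1.01 ± 0.16 on the log2 scale (SE; edgeR adjusted p = 0.00538). Col4a2 was at 246 ± 48.8 against 435 ± 83.5 CPM, or -0.82 ± 0.16 on the log2 scale (edgeR adjusted p = 0.0109). Both passed with each library left out in turn, and 11.9% of all tested genes were called in this comparison, 5.52% as lower. DESeq2 called 14.4% of genes and the same 2 members. The same 2 were the members with an unadjusted p under 0.05 (28.1% of all genes) and those whose groups did not overlap (33.7%). The median log2 fold change of the 10 members was -0.06, against 0.01 over all tested genes.

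Endothelial markers were also mostly lower with sunitinib than with erlotinib. All 12 markers of the list, among them Pecam1, Cdh5 and the VEGF receptors Kdr and Flt1, were tested and none was at 0. Their score, the mean log2 CPM difference from all libraries, was -0.21 to 0.04 in sunitinib libraries, -0.00 to 0.15 with erlotinib, 0.08 to 0.25 with sorafenib and -0.20 to -0.07 in controls. Their summed level was 1114.0 to 1365.4 CPM in sunitinib libraries, 1315.1 to 1406.9 CPM with erlotinib, 1390.1 to 1539.3 CPM with sorafenib and 1175.4 to 1268.4 CPM in controls, so the sunitinib range overlapped those of erlotinib and control. Between sunitinib and erlotinib, 10 of the 12 had a log2 fold change below 0, with a median of -0.22, and 3 were called lower (5.52% of all tested genes). Medians there were 0.04 for pericyte and smooth muscle, 0.17 for fibroblast, 0.09 for cardiomyocyte and 0.17 for adipocyte markers. They were 0.77 for Schwann cell (5 tested), 0.46 for mesothelial (2 tested), -0.06 for macrophage (9 tested) and -0.32 for skeletal muscle markers (3 tested). Among these lists, 1 pericyte and smooth muscle marker was called lower with sunitinib, and 1 cardiomyocyte and 1 Schwann cell marker higher. Against control, all 10 fibroblast markers were below 0 with sorafenib and with erlotinib (medians -0.32 and -0.34), none called. With the endothelial marker score per library as a covariate, a fit chosen after seeing the data, the log2 fold change of Col4a1 was -0.65 (edgeR adjusted p = 0.0927) and that of Col4a2 was -0.51 (adjusted p = 0.169), and no member was called. The same covariate took the calls over all tested genes from 1595 to 29. The score itself differs between the groups, so with 3 libraries per group its part and that of the drug cannot be told apart.

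Atrial and conduction markers differed within the groups and also between sunitinib and erlotinib, where 4 of the 11 tested were called higher with sunitinib. Of all tested genes, 11.9% were called there in either direction, 5.52% as lower. Of the 11 markers, 9 lay above 0 on the log2 scale and the median was 1.07. Their score was between 0.68 and 0.97 in controls, at 1.18, 1.60 and -1.35 in the sunitinib libraries, at -1.52, 0.97 and -1.72 in the sorafenib libraries, and at 0.64, -0.57 and -1.63 in the erlotinib libraries. The lowest and the highest Col4a1 library, Sunitinib_1370 and Erlotinib_1376, both had low scores, which is no test of the part of atrial tissue. With this score as a covariate, the log2 fold changes between sunitinib and erlotinib were -0.99 for Col4a1 (edgeR adjusted p = 0.0166) and -0.80 for Col4a2 (adjusted p = 0.0305). The atrial markers also differ between these groups, so their part and that of the drug cannot be told apart.

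**Figure D2:**
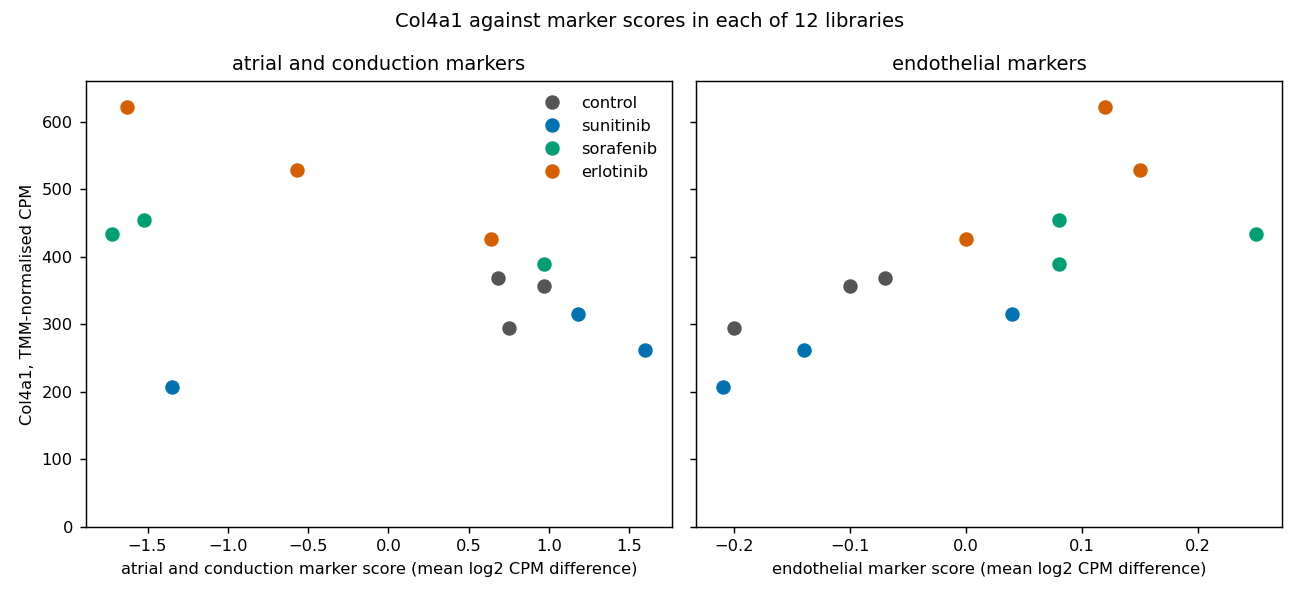
Col4a1 in TMM-normalised CPM (y axis) against the atrial and conduction marker score (left) and the endothelial marker score (right), each the mean over markers of the log2 CPM difference from the mean of all libraries; points are the 12 libraries. The sunitinib library at 207 CPM and the erlotinib library at 622 CPM have atrial scores of -1.35 and -1.63, and endothelial scores of -0.21 and 0.12.

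Against control, no member passed the threshold with any of the 3 drugs. The background was 0.00% of tested genes called for sunitinib, 0.00744% for sorafenib and 0.283% for erlotinib. With erlotinib, the log2 fold changes were 0.63 ± 0.16 for Col4a1 (edgeR adjusted p = 0.114) and 0.55 ± 0.16 for Col4a2 (adjusted p = 0.156). DESeq2 called both, with adjusted p = 0.00810 and 0.0301, where it called 2.84% of the genes it tested. Of the endothelial markers, 9 of 12 were above 0 in this comparison, with a median log2 fold change of 0.16 and none called; with the endothelial covariate the log2 fold changes were 0.23 for Col4a1 and 0.20 for Col4a2 (edgeR adjusted p = 0.714 and 0.781). With sorafenib the log2 fold changes were 0.33 ± 0.16 for Col4a1 and 0.36 ± 0.16 for Col4a2 (edgeR adjusted p = 0.440 and 0.386). Here 9 of 12 endothelial markers were above 0, with a median log2 fold change of 0.26 and none called, and the endothelial covariate turned the direction of both, to -0.15 for Col4a1 and -0.05 for Col4a2 (edgeR adjusted p = 0.843 and 0.963). With sunitinib they were -0.38 ± 0.16 and -0.27 ± 0.16 (edgeR adjusted p = 0.440 and 0.581). Here 7 of 12 endothelial markers were below 0, with a median log2 fold change of -0.02 and none called. The endothelial covariate left the direction of both, at -0.42 for Col4a1 and -0.31 for Col4a2 (edgeR adjusted p = 0.229 and 0.362). These comparisons share the control libraries.

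At an unadjusted p under 0.05, 2 of 10 members passed in each drug against control, against 10.9% of all genes for sunitinib, 12.4% for sorafenib and 15.5% for erlotinib. They were Col4a1 and Lama5 for sunitinib, Col4a2 and Hspg2 for sorafenib, and Col4a1 and Col4a2 for erlotinib. Groups did not overlap for 1 member with sunitinib (14.6% of all genes), 3 with sorafenib (16.3%) and 5 with erlotinib (20.6%). With erlotinib, 4 of them were higher than control, Col4a1, Col4a2, Lamb2 and Hspg2 (10.2% of all genes), and Lama2 was lower (10.4%). DESeq2 called no member with sunitinib (0.724% of genes) or sorafenib (1.30%). The median log2 fold change of the members against control was -0.03 for sunitinib, 0.14 for sorafenib and 0.07 for erlotinib, beside 0.00, -0.00 and -0.01 over all tested genes.

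Between sunitinib and sorafenib, which both inhibit VEGF receptors, no member was called (0.0372% of all genes), and 3 had an unadjusted p under 0.05 (9.87% of all genes), Col4a1, Col4a2 and Nid1. The pair did not overlap between these groups (14.6% of all genes). Col4a1 was at 261 ± 54.1 against 425 ± 33.0 CPM, a log2 fold change of -0.70 with a 95% interval of -1.06 to -0.34 (edgeR adjusted p = 0.159). Col4a2 was at 246 ± 48.8 against 382 ± 33.5 CPM, a log2 fold change of -0.64 with an interval of -0.99 to -0.28 (edgeR adjusted p = 0.204). DESeq2 called both, with adjusted p = 0.00494 and 0.0151, and called 1.03% of genes in all. With the endothelial covariate the edgeR values were -0.27 and -0.26. Of the endothelial markers, 11 of 12 had a log2 fold change below 0 here, with a median of -0.28. Between sorafenib and erlotinib no member was called either (2.70% of all genes; 6.16% by DESeq2, no member), none had an unadjusted p under 0.05 (19.4%) and 1, Nid1, did not overlap (25.2%), and the log2 fold changes were -0.30 for Col4a1 (interval -0.66 to 0.05) and -0.18 for Col4a2 (interval -0.54 to 0.17). The doses of the drugs differ, so these values compare the groups as dosed.

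**Figure D3:**
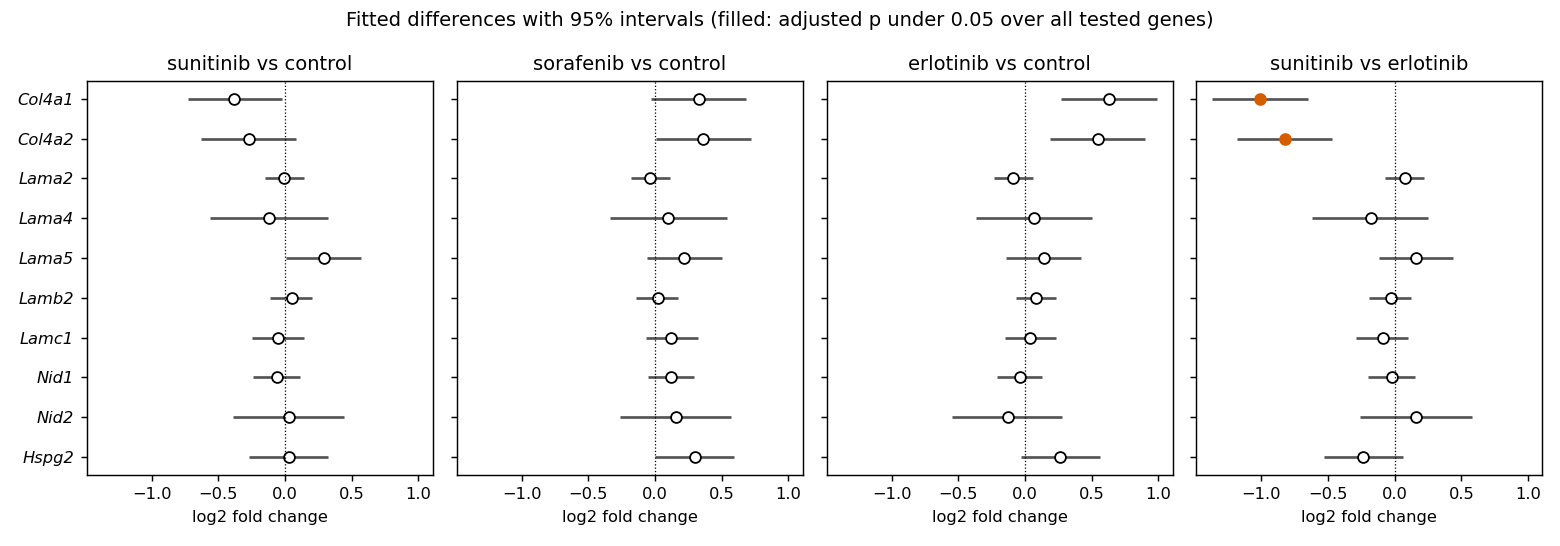
Log2 fold change (x axis) of each member (y axis) in 4 comparisons, with 95% intervals from the edgeR fit; filled points have an adjusted p under 0.05. The filled points are Col4a1 at -1.01 and Col4a2 at -0.82 between sunitinib and erlotinib.

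No laminin alpha chain passed the test in any of the 6 comparisons. Lama2, the alpha chain of the muscle basement membrane, was at 204 ± 8.17 CPM in controls, 203 ± 10.4 with sunitinib, 199 ± 14.2 with sorafenib and 193 ± 2.12 with erlotinib. All 12 libraries lay between 184 and 213 CPM. Lama4, found in vessel and muscle basement membranes, ranged from 63.7 to 108 CPM, and its sorafenib libraries alone were at 65.6, 108 and 101 CPM.

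Lama5, an alpha chain of vessel basement membranes, was at 185, 231 and 235 CPM in controls and at 297, 242 and 257 CPM with sunitinib. Every sunitinib library lay above every control library, and the log2 fold change was 0.29 ± 0.13 (edgeR adjusted p = 0.443). With sorafenib Lama5 was at 288, 213 and 258 CPM and with erlotinib at 223, 222 and 269 CPM, and both groups overlapped the controls.

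Lamb2 and Lamc1, the beta and gamma chains that pair with these alpha chains, passed in none either, and Lamb2 had the lowest ratio of highest to lowest library among the members, 1.15 (426 to 492 CPM), beside 1.16 for Lama2. Lamb2 was at 440 ± 12.2 CPM in controls and within 444 to 465 CPM as the mean of each drug group. Lamc1 was at 256 ± 6.19 CPM in controls, 247 ± 30.5 with sunitinib, 279 ± 19.8 with sorafenib and 264 ± 17.6 with erlotinib. The 95% intervals of the log2 fold change against control were -0.11 to 0.20 with sunitinib, -0.14 to 0.17 with sorafenib and -0.07 to 0.23 with erlotinib for Lamb2. For Lamc1 they were -0.25 to 0.14, -0.07 to 0.32 and -0.15 to 0.23.

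As shares of summed TPM, Lama2 made up 40.4 ± 0.657% of alpha chains in controls, 38.3 ± 3.74% with sunitinib, 36.5 ± 1.66% with sorafenib and 36.8 ± 1.57% with erlotinib (SD, n = 3). The sorafenib and erlotinib libraries lay below every control library, and an exact two-sided permutation test gave p = 0.10 for each, the smallest that 3 against 3 allows. Lama5 made up 36.6 ± 3.37% in controls and 41.8 ± 2.31% with sunitinib (exact permutation p = 0.200). Lamb2 made up 72.5 ± 2.04% of beta chains in controls and 75.4 ± 1.65% with erlotinib (exact permutation p = 0.200). Lamc1 made up 92.1 ± 1.12% of gamma chains in controls.

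**Figure D4:**
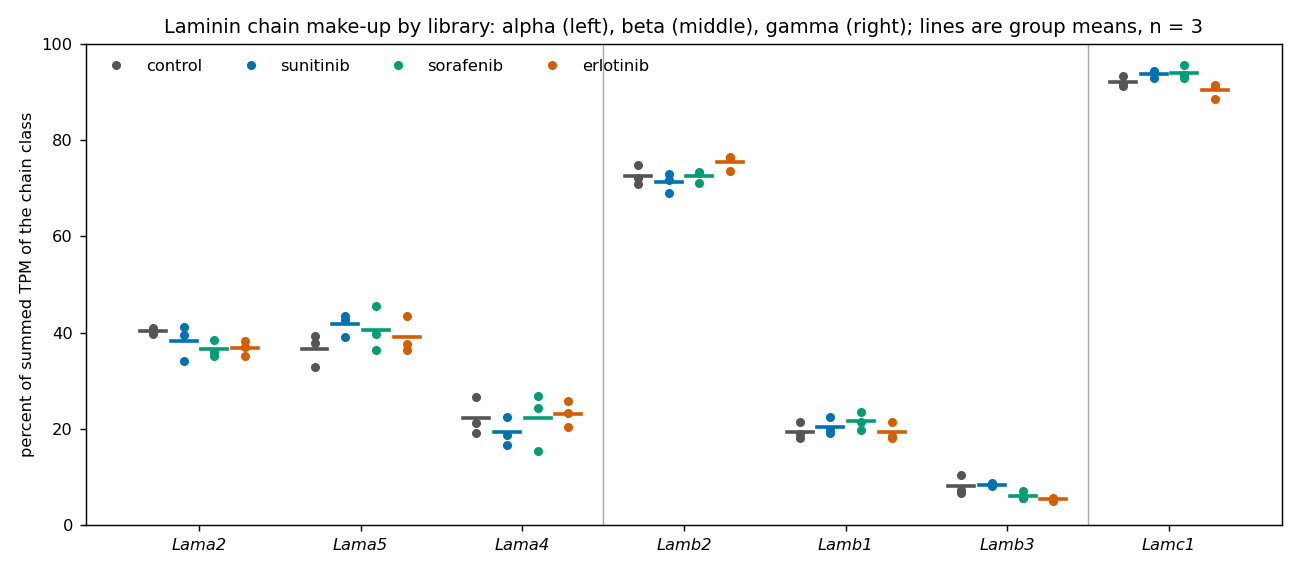
Percent of the summed TPM of each laminin chain class (y axis) taken by each chain (x axis; alpha left, beta middle, gamma right); points are libraries, coloured by group, and lines are means of 3. Lama2 and Lama5 take 36.5 to 41.8% of alpha chains as group means, while Lamb2 takes 71.2 to 75.4% of beta chains.

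The linkers between the networks did not pass the test either. Nid1 was at 170, 174 and 178 CPM in controls, and at 181, 199 and 188 CPM with sorafenib, above every control library (log2 fold change 0.12 ± 0.08, edgeR adjusted p = 0.563). With sunitinib it was at 169, 183 and 146 CPM and with erlotinib at 159, 175 and 174 CPM, both overlapping the controls. Nid2 ranged from 20.7 to 33.5 CPM. It was the one member with fractional expected counts, in 11 libraries, so part of its reads were shared with other sequences and its level is uncertain. Hspg2 was at 527, 504 and 612 CPM in controls, 691, 507 and 476 with sunitinib, 583, 699 and 739 with sorafenib, and 614, 693 and 662 with erlotinib. Its erlotinib libraries lay above every control library (log2 fold change 0.26 ± 0.14, edgeR adjusted p = 0.388), and without Sunitinib_1368 it was called too between sunitinib and erlotinib.

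Among the members, the collagen pair was the most alike across libraries. Col4a1 and Col4a2 had a Pearson r of 0.987 over log2 CPM in the 12 libraries, and Col4a2 ranked 1 of 13439 genes in likeness to Col4a1. Hspg2 had an r of 0.689 with Col4a1, Lamc1 of 0.627, Lamb2 of -0.0208 and Lama2 of -0.341. Lamc1 had an r of 0.827 with Nid1 and of 0.824 with Hspg2. These r describe libraries that share group and depth and carry no test.

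The ratio of the pair was close to even. The log2 ratio of Col4a1 to Col4a2 TPM was 0.15 ± 0.10 in controls, 0.04 ± 0.02 with sunitinib, 0.11 ± 0.03 with sorafenib and 0.23 ± 0.03 with erlotinib. The sunitinib libraries lay below every control library (exact permutation p = 0.10, the smallest possible). The 2 gene models overlap at their starts on opposite strands, and strand use in the counting is not given in the sources used here, so reads in that short overlap cannot be assigned with certainty.

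**Figure D5:**
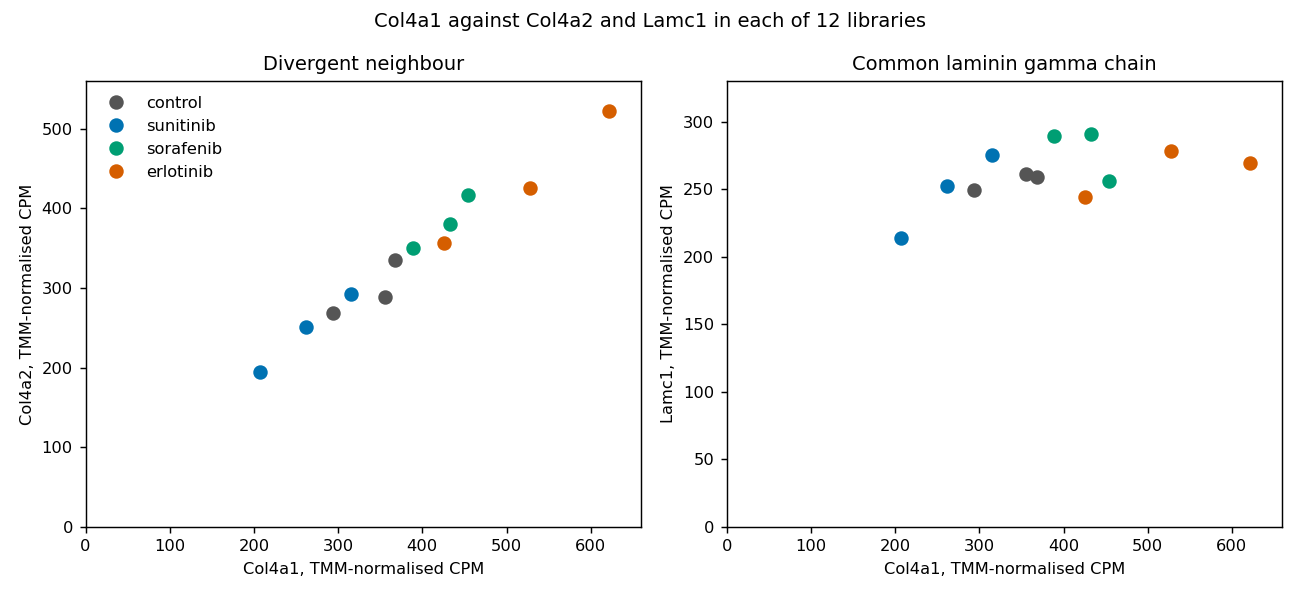
Col4a2 (left) and Lamc1 (right) against Col4a1 in the 12 libraries, all in TMM-normalised CPM, coloured by group. Col4a2 follows Col4a1 (Pearson r of 0.987) more closely than Lamc1 does (0.627).

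Among the 5 genes most like the mean of all 10 members were Sez6l2 (r of 0.943), Elf4 (0.932), Abi3 (0.929) and Tmod3 (0.928). Most like Col4a1 after Col4a2, a ranking added after values were seen, was Nppb, the natriuretic peptide gene induced by wall stress, with an r of 0.971. Nppb was at 115, 205 and 169 CPM in controls, 154, 71.7 and 40.2 with sunitinib, 269, 296 and 294 with sorafenib, and 516, 644 and 902 with erlotinib. Every sunitinib library lay below, and every erlotinib library above, the sorafenib libraries.

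The other basement membrane chains were mostly low. Of 13 listed, 11 were tested, and Lama1 and Lamc3 were too low, with at most 3 and 10 expected counts in a library. Lamb3, a beta chain of epithelial laminin, was higher with sunitinib than with erlotinib, at 42.5, 40.7 and 41.9 against 25.6, 23.9 and 28.4 CPM (log2 fold change 0.68 ± 0.13, edgeR adjusted p = 0.00864). In that comparison 2 of the 11 were called (11.9% of all genes), 1 higher and 1 lower. Lamb3 was at 32.6, 49.0 and 34.3 CPM in controls, which the sunitinib libraries overlapped (log2 fold change 0.11 ± 0.13, edgeR adjusted p = 0.804). Every erlotinib library (-0.57 ± 0.13 against control on the log2 scale, edgeR adjusted p = 0.0878) and every sorafenib library (-0.41 ± 0.13, edgeR adjusted p = 0.251) lay below every control library.

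The remaining collagen chains of that list did not pass. Col15a1, a vessel-associated collagen, was at 90.1, 61.9 and 41.1 CPM with sunitinib and at 128, 153 and 128 CPM with erlotinib (log2 fold change -1.08 ± 0.31, edgeR adjusted p = 0.0527). These groups did not overlap, as for 33.7% of all tested genes. In controls Col15a1 was at 98.4, 139 and 171 CPM, above every sunitinib library and overlapping the erlotinib libraries. With sorafenib it was at 62.4, 108 and 98.3 CPM, overlapping the sunitinib and control libraries. Col4a5 stayed between 54.7 and 72.1 CPM, Col18a1 between 5.55 and 19.6 CPM and agrin (Agrn) between 55.8 and 79.0 CPM. Col4a3, Col4a4 and Col4a6 each stayed at or below 13.3 CPM, Lama3 lay between 2.11 and 5.71 CPM, and Lamb1 between 111 and 143 CPM.

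Against control, no gene of any of the 5 lists was called with any drug. Between sunitinib and erlotinib, where 11.9% of all genes were called, the lists' median log2 fold changes were -0.04 for other chains, -0.05 for associated proteins, -0.04 for receptors and linkers, -0.03 for biosynthesis and -0.09 for proteases and inhibitors, beside 0.01 over all genes. Among 24 basement membrane associated proteins, Smoc2, a calcium-binding matricellular protein, and Sparc, a collagen-binding protein, were lower with sunitinib than with erlotinib. Smoc2 was at 84.8, 79.5 and 77.1 against 103, 96.3 and 110 CPM (log2 fold change -0.36 ± 0.07, edgeR adjusted p = 0.00982). Its control libraries, at 106, 118 and 103 CPM, lay above every sunitinib library and overlapped the erlotinib libraries. Between sorafenib and erlotinib, 2 of the 24 were called (2.70% of all genes). Fbln5, an elastic fibre protein, was lower (-0.60 ± 0.12, edgeR adjusted p = 0.0314) and Egfl7, an endothelial factor, was higher (0.44 ± 0.08, adjusted p = 0.0297). Of the other lists, Xylt2, Adamts5 and Plau were called in this comparison, all higher with sorafenib.

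Among 26 receptors and membrane linkers, 2 were called between sunitinib and erlotinib (11.9% of all genes), both lower. They were Itga2, a collagen-binding integrin chain, and utrophin (Utrn), a relative of dystrophin. The log2 fold changes were -1.97 ± 0.44 for Itga2 (edgeR adjusted p = 0.0141) and -0.34 ± 0.08 for Utrn (edgeR adjusted p = 0.0152). Itga2 was at very low levels, at most 0.364 CPM with sunitinib and at least 1.01 CPM with erlotinib. Its control libraries overlapped both groups. Dystroglycan (Dag1), the laminin receptor, was at 488, 472 and 489 CPM with sunitinib, above the 406, 411 and 404 CPM of the controls (0.25 ± 0.07, edgeR adjusted p = 0.282). It was at 468, 417 and 446 CPM with sorafenib and at 428, 491 and 471 CPM with erlotinib, also above every control library.

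Among 29 tested genes of collagen and laminin biosynthesis, 7 were called between sunitinib and erlotinib (11.9% of all genes), 3 higher and 4 lower. P4ha1, a prolyl hydroxylase subunit that stabilises the collagen helix, was at 78.1, 72.4 and 68.2 CPM with sunitinib and at 115, 99.1 and 101 CPM with erlotinib (log2 fold change -0.53 ± 0.11, edgeR adjusted p = 0.0107). Its control libraries, at 76.2, 65.7 and 80.7 CPM, overlapped the sunitinib libraries and lay below every erlotinib library. P4ha2, the collagen chaperone Serpinh1 and the crosslinking enzyme Loxl2 were also lower. Xylt2, which starts glycosaminoglycan chains, was higher (0.56 ± 0.10, edgeR adjusted p = 0.00605), as were Leprel4, a collagen modification factor (0.62 ± 0.12, adjusted p = 0.00960), and Ctage5.

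Among 22 proteases and inhibitors, 5 were called between sunitinib and erlotinib (11.9% of all genes), 1 higher and 4 lower. Adamts5, a proteoglycan-cleaving protease, was higher, at 37.2, 46.9 and 35.6 against 20.9, 23.9 and 20.8 CPM (log2 fold change 0.87 ± 0.13, edgeR adjusted p = 0.00278). Adamts9, another protease of that family, was lower, at 22.6, 21.2 and 14.2 against 73.5, 75.1 and 136 CPM (-2.29 ± 0.43, edgeR adjusted p = 0.0128). In controls Adamts5 was at 37.8, 29.0 and 32.5 CPM and Adamts9 at 19.9, 64.3 and 30.3 CPM. Both overlapped the sunitinib libraries and not the erlotinib libraries. Adamts1 and Adamts4 were lower too, Adamts4 at very low levels of 0.668, 0.258 and 0.00 against 1.02, 3.42 and 2.87 CPM.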

How the data were processed

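Heart polyA RNA was sequenced in 12 libraries from a stranded kit, per the labels. The authors deposited RSEM expected counts, TPM and FPKM per gene for each library, and a table of scaled signal that equals the normalised column of the library files. Mouse build mm9, Picard 1.88 and SAMtools 1.2 are named in the submitters' processing notes; no aligner is named there. The deposited TPM of listed genes sum to 54.9 to 60.8% of the full TPM total, so the tables hold part of the RSEM gene set. The deposited FPKM were not tested.

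Expected counts (89.5 to 90.3% whole) were rounded and tested with edgeR 4.0.16 (R 4.3.3; filterByExpr, TMM factors 0.949 to 1.04, robust quasi-likelihood) over all 12 libraries, with Benjamini-Hochberg adjustment over 13440 genes and a threshold of 0.05. Shares and ratios used TPM and exact permutation tests. Alternatives were DESeq2 1.42.0, RLE scaling, no filter, leaving out the 20 most abundant genes, the compared groups alone, limma 3.58.1 on log2 of the authors' signal plus 1, an atrial score, each library left out, and, chosen after seeing the data, an endothelial score. Named genes were the members, the 3 genes of smallest p for any difference in each of 5 pathway lists, all listed other chains, and the 5 genes most like the members' mean; further genes were named where they complete a count or were chosen after their values were seen. The members and lists were chosen with earlier results of these data known. Samples were grouped by title. Some genes that the rule names are not reported here.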

Additional observations from a re-analysis of the deposited data

How the results depend on the processing

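The pair's calls between sunitinib and erlotinib were kept under DESeq2, RLE scaling, no filter, without the 20 most abundant genes, with the compared groups alone, limma and the atrial covariate, and with each library left out (2 to 3 members called). With the endothelial covariate, chosen after seeing the data, 0 members were called there and 0 for any difference, and the genes called in all fell from 1595 to 29 and from 725 to 174. The atrial covariate gave 0 members for any difference (395 genes in all), and leaving out each library gave 0 to 2. For erlotinib against control and for sunitinib against sorafenib, DESeq2 called 2 members where edgeR called 0. DESeq2 called 367 genes against 38 of edgeR for erlotinib against control, and 1663 against 725 for any difference. Leaving out 1 library moved the genes called between sunitinib and erlotinib from 404 to 1713. No paired analysis was possible because the groups share no replicate numbers. The cause of these changes was not tested.

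Of 60 member log2 fold changes, 37 changed sign under some alternative; none of the 37 was a called value, and the largest was 0.36 in size. With the endothelial covariate 24 did so, and their values there were as follows. For sunitinib against control Nid2 -0.02 and Hspg2 -0.02. For sorafenib against control Col4a1 -0.15, Col4a2 -0.05, Lama4 -0.22, Lama5 -0.03, Lamc1 -0.13, Nid2 -0.22 and Hspg2 -0.12. For erlotinib against control Lama4 -0.19, Lama5 -0.07, Lamc1 -0.17 and Hspg2 -0.08. For sunitinib against sorafenib Lama4 0.06, Lamb2 -0.07, Lamc1 0.06, Nid2 0.20 and Hspg2 0.11. For sunitinib against erlotinib Lama4 0.03, Lamc1 0.09, Nid1 0.06 and Hspg2 0.06. For sorafenib against erlotinib Lama4 -0.03 and Hspg2 -0.04. Under limma, Lamb2 was at -0.00 for sorafenib against control, Lamc1 at -0.01 for erlotinib against control, and Lamb2 and Nid1 each at 0.02 for sunitinib against erlotinib. With the atrial covariate, Lamb2 was at -0.00 for sorafenib against control and Nid1 at 0.02 for erlotinib against control. Leaving out 1 library changed the sign of 22. For sunitinib against control the ranges were Hspg2 from -0.16 to 0.13, Nid2 from -0.18 to 0.17, Lama2 from -0.04 to 0.03, Lama4 from -0.30 to 0.01, Lamb2 from -0.02 to 0.08, Lamc1 from -0.14 to 0.04 and Nid1 from -0.14 to 0.02. For sorafenib against control the ranges were Lamb2 from -0.04 to 0.05, Lama2 from -0.08 to 0.02 and Lama4 from -0.04 to 0.29. For erlotinib against control the ranges were Lama4 from -0.03 to 0.16 and Nid1 from -0.06 to 0.00. For sunitinib against sorafenib the ranges were Lama5 from -0.04 to 0.17, Lama2 from -0.02 to 0.07, Lamb2 from -0.03 to 0.08 and Nid2 from -0.34 to 0.02. For sunitinib against erlotinib the ranges were Lamb2 from -0.10 to 0.00, Nid2 from -0.05 to 0.35 and Nid1 from -0.10 to 0.06. For sorafenib against erlotinib the ranges were Lama5 from -0.02 to 0.19, Lama4 from -0.10 to 0.23 and Hspg2 from -0.04 to 0.13. Differences from control in laminin alpha and beta shares and in the Col4a1 to Col4a2 ratio were recalculated 126 times. Each moved by less than 1 SD, pooled over the drug and control libraries. That SD was at most 5.09 percentage points for shares and 0.07 for the log2 ratio. Leaving out 1 of 3 libraries cannot move such a difference by 1 SD, so those recalculations are no test of stability. Leaving out 1 library took the Lama2 share from -3.59 to -0.0108 percentage points with sunitinib and the Lama5 share from 0.321 to 3.92 with erlotinib. It changed the sign for Lama4 with sorafenib (-2.52 to 3.26) and erlotinib (-0.766 to 2.95), Lamb1 with erlotinib (-1.16 to 0.908), Lamb2 with sorafenib (-0.962 to 1.03) and the log2 ratio with sorafenib (-0.06 to 0.02). With expected counts in place of TPM, Lama4 with sorafenib was at 0.0160 and Lamb1 with sunitinib at -0.214, also of changed sign.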
